A study of Mus musculus with 16 samples.

Results

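The glucose transporter gene Slc2a1 and 9 glycolytic enzyme genes (Hk1, Hk2, Gpi1, Pfkp, Aldoa, Pgk1, Eno1, Pkm and Ldha) were followed in splenic CD4+ T cells of mice whose thyroid hormone receptor alpha cannot bind DNA. The 10 genes were chosen by name, and all 10 were found among the 47643 gene identifiers of both deposited tables. One table is for the CD25- CD4+ fraction, for which the label naive is used and which is written CD4. The other holds CD25+ CD4+ cells, labelled Treg, the regulatory T cells that restrain immune responses. Each table has 4 TRaWT mice, which carry the wild-type receptor, and 4 TRaGS mice, which carry the receptor variant known as TRαGS. The TRaWT mice are littermates, and each of the 8 mice gave 1 library of each subset, so that the design has 16 libraries in 4 groups. No drug or hormone treatment is named in the labels, and sources used here state neither age nor sex of the mice. CD4+ cells were enriched from spleen on magnetic columns and then sorted by flow cytometry, and mRNA was sequenced from its 3′ end. The values are normalised counts, that is reads per gene divided by a size factor for the library. In such bulk samples a lower share of cells that express a gene and less of its RNA per cell cannot be told apart.

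Glycolysis splits glucose into pyruvate in the cytosol. Slc2a1 (GLUT1) carries glucose across the plasma membrane, hexokinases trap it as glucose 6-phosphate, and the enzymes that follow rearrange, split and oxidise the sugar to pyruvate, which lactate dehydrogenase can reduce to lactate. Resting T cells need little of this flux, and activated effector T cells raise it sharply, whereas regulatory T cells are known to lean more on mitochondrial oxidation. Thyroid hormone acts on carbohydrate metabolism in many tissues, in part through receptors bound to DNA as partners of the retinoid X receptor, and the GS exchange in the DNA-binding domain removes that binding while leaving the receptor protein able to bind hormone. The question put to the data was therefore whether the mRNAs of the pathway differed between genotypes within each subset.

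Because the mutation concerns DNA binding, the RefSeq promoters of the 10 genes were searched for AGGTCA, the half-site that thyroid hormone receptors recognise, and for ACGTG and GCGTG, the core that hypoxia-inducible factors recognise. RefSeq (GRCm38.p6) lists 17 windows of 300 bases for the 10 genes, each from 250 bases before to 50 bases after a transcription start. AGGTCA on either strand was present in 4 windows of 3 genes (Aldoa, Eno1 and Pkm), and in 16.3% of the 32851 windows of all genes. Direct repeats of AGGTCA with 4 bases between the copies, the classical thyroid hormone response element, were present in 0 of the 17 windows and in 0.0152% of all windows. ACGTG was present in 8 windows of 7 genes, against 19.6% of all windows, and GCGTG in 8 windows of 5 genes, against 32.4%. At least 1 of the latter 2 motifs was found in 13 windows of 9 genes, all except Gpi1, and in 43.8% of all windows. Windows of the same gene can overlap, as they do for Aldoa and Eno1, so the same site can count in several windows. The window counts are therefore not independent. The 250 bases before the start are shown for the transporter, for the last enzyme of the pathway with its row of ACGTG matches, and for both enzymes whose half-site lies before the start in a window that also holds ACGTG. Capitals mark every match on either strand, and a match on the opposite strand appears as the reverse complement of its motif. The palindrome CACGTG counts on both strands.
Slc2a1 (chr4:119108495-119108744, plus strand): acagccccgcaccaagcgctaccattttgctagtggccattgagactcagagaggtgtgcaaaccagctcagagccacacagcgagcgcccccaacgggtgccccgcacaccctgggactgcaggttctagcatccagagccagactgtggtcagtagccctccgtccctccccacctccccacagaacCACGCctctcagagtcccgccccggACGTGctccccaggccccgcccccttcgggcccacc
Ldha (chr7:46845554-46845803, plus strand): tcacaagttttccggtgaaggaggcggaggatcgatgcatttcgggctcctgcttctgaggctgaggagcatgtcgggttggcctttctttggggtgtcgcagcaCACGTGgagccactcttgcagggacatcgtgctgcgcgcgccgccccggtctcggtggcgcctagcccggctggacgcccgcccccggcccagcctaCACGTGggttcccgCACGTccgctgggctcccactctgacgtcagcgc
Pkm (chr9:59656977-59657226, plus strand): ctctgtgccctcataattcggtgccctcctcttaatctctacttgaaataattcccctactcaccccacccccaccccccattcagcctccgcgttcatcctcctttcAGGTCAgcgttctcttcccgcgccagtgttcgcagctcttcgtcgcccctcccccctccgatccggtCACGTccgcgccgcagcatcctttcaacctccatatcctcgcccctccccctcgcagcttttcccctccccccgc
Aldoa (chr7:126799255-126799504, minus strand): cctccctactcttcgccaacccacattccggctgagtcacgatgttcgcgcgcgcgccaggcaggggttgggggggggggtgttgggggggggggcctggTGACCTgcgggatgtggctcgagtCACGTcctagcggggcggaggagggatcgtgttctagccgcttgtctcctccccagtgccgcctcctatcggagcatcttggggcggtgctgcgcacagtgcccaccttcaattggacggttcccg
A motif match describes the letters of a window and does not show binding.

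Recovered sequencing depth was 2679119 to 5095278 reads per library in CD4 and 2912038 to 4154027 in Treg. Gm42418, a locus that contains ribosomal RNA, accounted for between 21.1% and 41.1% of a CD4 library and between 20.8% and 33.0% of a Treg library. Foxp3, the marker of regulatory T cells, was 43.1 to 170.1 normalised counts in CD4 and 893 to 1330.0 in Treg, in tables that were normalised separately. The CD8 T cell genes Cd8a and Cd8b1 together summed to 228 to 389 in the CD4 libraries and 274 to 355 in the Treg libraries. Thra, the mutated gene, was read in all 16 libraries, at 122 ± 51.2 (SD, n = 4) in TRaWT and 115 ± 48.7 in TRaGS CD4, and at 133 ± 15.3 and 135 ± 52.9 in Treg. A tag count near the 3′ end cannot show the exchange, so Thra does not check the genotype labels. One library stood apart, the CD4 library of TRaGS replicate 2. It was the deepest, its share of mitochondrial mRNA was 3.71% where the lowest CD4 library had 1.26%, and its summed erythroid markers reached 404 normalised counts against at most 30.5 in the other CD4 libraries. In the same library the summed macrophage and dendritic cell markers were 181, against 22.0 to 101.9 elsewhere in CD4, and the B cell markers 118, against 12.5 to 101.7. Its summed T cell markers were the highest too, at 9405 against 6158 to 7488 in the other CD4 libraries. Alas2 and Cd14 were at 0 in every CD4 library.

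None of the 10 genes differed between TRaGS and TRaWT mice past the threshold in either subset. Each table was fitted with limma on log2(normalised count + 1) over all genes with a mean of at least 5, and p-values were adjusted over all of them by the Benjamini-Hochberg method at a threshold of 0.05. In CD4, 8 of the 10 genes were tested and 0 passed, against 0.0575% of all tested genes (6 of 10426). In Treg, 9 were tested and 0 passed, against 0.959% of all tested genes (106 of 11051). At an unadjusted p under 0.05 there were 0 of the 8 in CD4, where 5.17% of all genes reached that level, and 1 of the 9 in Treg (Pfkp), where 9.12% did. edgeR and DESeq2 on recovered reads also passed 0 of the 10 in both subsets, where they passed 0.0288% and 0.0959% of all genes in CD4 and 0.814% and 1.25% in Treg. For 0 of the genes did the 4 TRaGS libraries lie wholly above or below the 4 TRaWT libraries, a separation that 3.16% of all genes showed in CD4 and 5.07% in Treg. The median log2 fold change of the tested members was -0.20 in CD4 (range -0.997 to 1.28) and -0.13 in Treg (range -0.53 to 0.98), beside medians of -0.01 and 0.01 over all genes. Estimates were negative for 6 of 8 members in CD4 and for 7 of 9 in Treg, beside 50.7% and 49.5% of all tested genes. With 1 replicate left out, the members' median ran from -0.58 (without TRaWT replicate 1) to 0.08 (without TRaWT replicate 4) in CD4. In Treg it ran from -0.33 to -0.09 without the same replicates. The smallest p that an exact permutation test of 4 against 4 libraries can give is 0.0286.

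**Figure D1:**
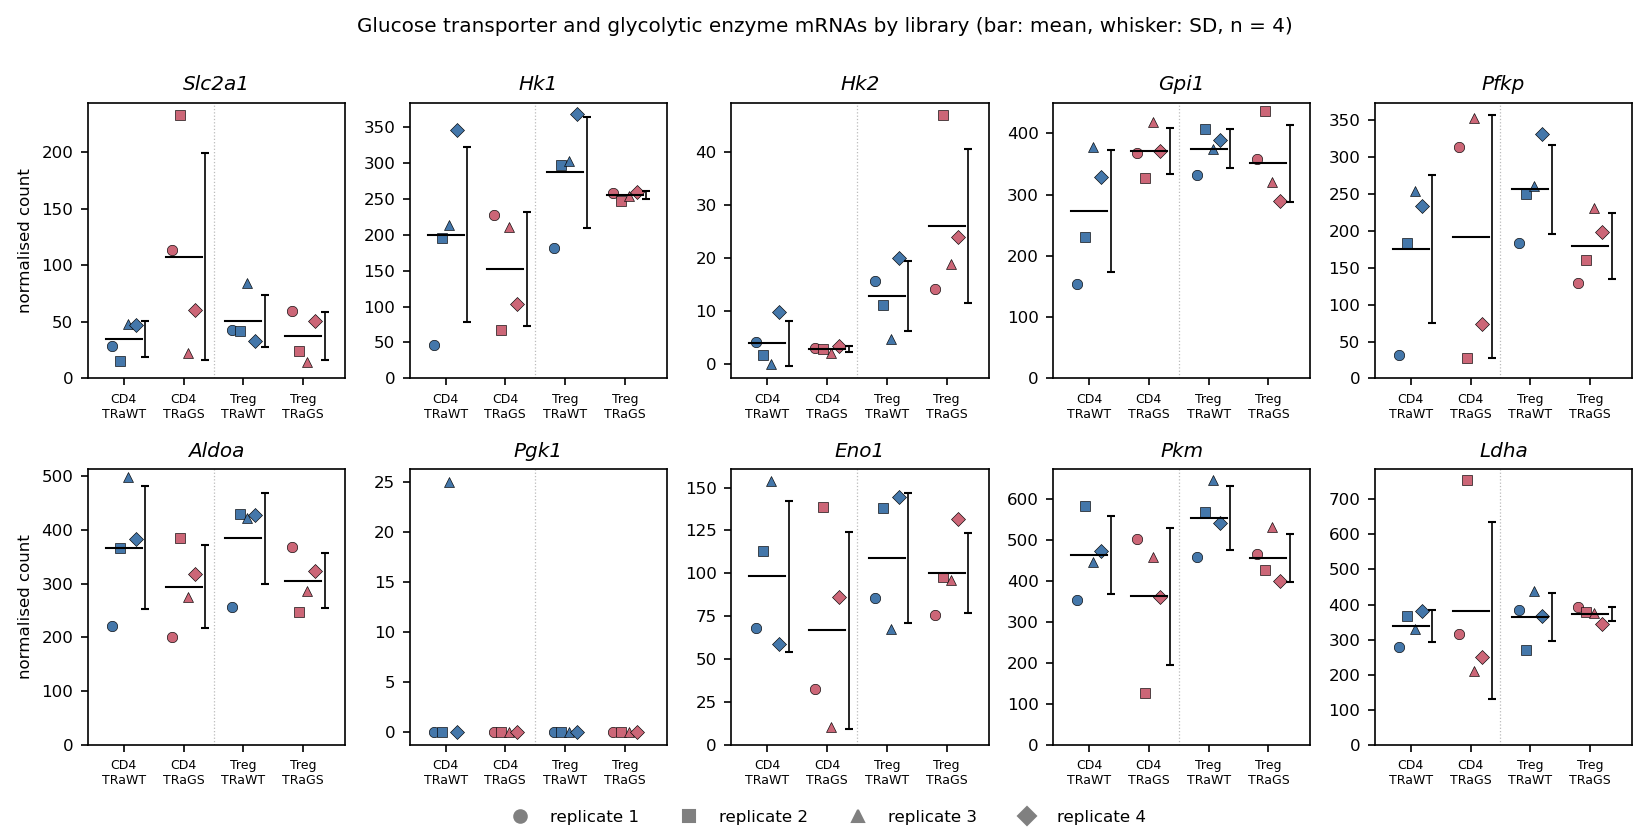
Normalised counts (y axis) of the 10 genes in each library of the 4 groups (x axis), with symbols for the replicates, bars for the group mean and whiskers for the SD (n = 4); no mean is drawn for Pgk1, which is listed at 0 in 15 of the 16 libraries. In every panel the TRaWT and TRaGS symbols of a subset overlap, and in CD4 Pfkp runs from 28.3 to 353.

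Slc2a1 (ENSMUSG00000028645, chr4:119108711-119137983, plus strand of GRCm38) encodes the main glucose importer of activated T cells. In CD4 it read 28.3, 15.0, 47.9 and 47.6 normalised counts in TRaWT replicates 1 to 4 and 113, 233, 22.6 and 60.7 in TRaGS replicates 1 to 4. In Treg the values were 42.7, 42.3, 84.0 and 32.9 in TRaWT and 59.8, 24.6, 14.5 and 51.1 in TRaGS. In CD4, 3 libraries of TRaGS mice therefore lay above all TRaWT libraries and the other among them. In Treg, 2 TRaGS libraries lay below all TRaWT libraries and the others among them. The log2 fold change was 1.28 ± 0.80 (SE; 95% interval -0.28 to 2.84) in CD4, with limma's adjusted p = 0.947 and an exact two-sided permutation p of 0.143, and -0.53 ± 0.52 (-1.57 to 0.52) in Treg, with adjusted p = 0.848. The highest CD4 value came from TRaGS replicate 2, the library with the highest erythroid, macrophage, B cell and T cell marker sums, and without it the CD4 estimate was 0.76. edgeR and DESeq2 gave 1.62 and 1.63 in CD4, with unadjusted p of 0.038 and 0.021 and adjusted p of 0.641 and 0.444. The part of that replicate's cell composition in the Slc2a1 value was not tested.

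The opposite signs of Slc2a1 in the subsets were compared directly. For each mouse the log2 level in CD4 was subtracted from that in Treg, which cancels any constant between the separately normalised tables, and the genotypes were compared on these differences. The effect of TRaGS on Slc2a1 was 1.81 log2 units lower in Treg than in CD4 (-1.81 ± 0.74 SE, 95% interval -3.51 to -0.11, n = 4 and 4 mice), with an unadjusted limma p of 0.039 and an adjusted p of 0.832. It was the only member under 0.05 before adjustment, where 5.76% of all 9914 genes were (571), and 0 members and 0% of all genes passed after adjustment. An edgeR model of all libraries passed 15 genes and limma with a variance trend 17, none of them members. Without the CD4 library of TRaGS replicate 2 and its Treg partner the estimate for Slc2a1 was -1.16. The other 7 members tested had differences between subsets of -0.63 (Gpi1) to 0.92 (Eno1), with adjusted p of at least 0.878.

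The hexokinases catalyse the first step inside the cell. Hk1 (ENSMUSG00000037012, chr10:62268855-62379908, minus strand), the widely expressed form, read 46.8, 195, 213 and 345 normalised counts in TRaWT and 228, 67.2, 211 and 103 in TRaGS CD4 cells. Its Treg values were 182, 297, 302 and 367 in TRaWT and 258, 247, 254 and 259.9 in TRaGS, so that all TRaGS libraries fell inside the TRaWT range. Log2 fold changes were -0.25 ± 0.48 (95% interval -1.19 to 0.68) in CD4 and -0.13 ± 0.22 (-0.56 to 0.31) in Treg. Hk2 (ENSMUSG00000000628, chr6:82725025-82774454, minus strand), the inducible form that rises on T cell activation and in many tumours, was hardly read in CD4, with 4.04, 1.67, 0 and 9.76 in TRaWT and 2.93, 2.83, 2.05 and 3.44 in TRaGS, and was below the level set for testing. Those CD4 values rest on 27 reads in all, and the Treg values on 172. In Treg it read 15.6, 11.1, 4.67 and 19.95 in TRaWT and 14.1, 47.0, 19.0 and 23.9 in TRaGS. Of the TRaGS libraries, 2 exceeded every TRaWT library, with a log2 fold change of 0.98 ± 0.73 (95% interval -0.49 to 2.45), limma's adjusted p = 0.766 and an exact permutation p of 0.143.

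Gpi1 (ENSMUSG00000036427, chr7:34201330-34230336, minus strand) turns glucose 6-phosphate into fructose 6-phosphate. Its CD4 values were 154, 231, 378 and 328 in TRaWT and 369, 327, 419 and 371 in TRaGS, and its Treg values 332, 406, 374 and 389 in TRaWT and 358, 436, 320.1 and 290.4 in TRaGS. The low CD4 values were those of TRaWT replicates 1 and 2, and the log2 fold change was 0.52 ± 0.35 (95% interval -0.17 to 1.21) there and -0.11 ± 0.19 (-0.49 to 0.27) in Treg. Pfkp (ENSMUSG00000021196, chr13:6579768-6648777, minus strand) is the platelet-type phosphofructokinase, one of the isoforms of the enzyme that commits the sugar to glycolysis. It read 31.5, 184, 254 and 233 in TRaWT and 314, 28.3, 353 and 73.3 in TRaGS CD4 cells, a 12.5-fold range within TRaGS that also held the TRaWT values. The CD4 estimate of -0.14 ± 0.50 became 0.56 without TRaGS replicate 2. In Treg, Pfkp read 183, 250.5, 260.1 and 331 in TRaWT and 129, 160.5, 231 and 199 in TRaGS. With 2 TRaGS libraries below all TRaWT libraries, its log2 fold change was -0.51 ± 0.24 (95% interval -0.99 to -0.03), the lowest unadjusted limma p of any member within a subset (0.037), an adjusted p of 0.502 and an exact permutation p of 0.114.

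Aldoa (ENSMUSG00000030695, chr7:126795234-126800751, minus strand) splits fructose 1,6-bisphosphate. In CD4 it read 221, 367, 499 and 383 in TRaWT and 201, 385, 275 and 317 in TRaGS. In Treg it read 256, 429.6, 423 and 428 in TRaWT and 368, 247, 286 and 323 in TRaGS, so that 3 TRaWT libraries lay above all TRaGS libraries and replicate 1 lay among them. The log2 fold change was -0.30 ± 0.35 (95% interval -0.98 to 0.39) in CD4 and -0.31 ± 0.20 (-0.72 to 0.10) in Treg. Pgk1 (ENSMUSG00000062070, chrX:106187100-106203699, plus strand), which makes the first ATP of the pathway, was listed at 25.05 in CD4 TRaWT replicate 3 and at 0 in the other 15 libraries, and was not tested. Eno1 (ENSMUSG00000063524, chr4:150236721-150248879, plus strand), the enolase of most tissues, read 67.8, 113, 154 and 58.5 in TRaWT and 32.3, 139, 10.3 and 85.9 in TRaGS CD4 cells. Its Treg values were 85.5, 138, 67.6 and 144 in TRaWT and 75.6, 97.6, 95.9 and 132 in TRaGS. The lowest CD4 values were those of TRaGS replicates 1 and 3, with a log2 fold change of -0.997 ± 0.70 (95% interval -2.38 to 0.38, adjusted p = 0.947 by limma), while in Treg all TRaGS libraries lay inside the TRaWT range, at -0.08 ± 0.32 (-0.72 to 0.57). The CD4 estimate for Eno1 became -0.32 when TRaGS replicate 3 was left out and -1.53 when TRaGS replicate 2 was, and edgeR gave -0.56.

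Pkm (ENSMUSG00000032294, chr9:59656368-59679375, plus strand) makes pyruvate. Its M1 and M2 isoforms, which differ in an internal exon, share their 3′ end, so that 3′ tags do not separate them. In CD4 it read 352, 582, 445 and 473 in TRaWT and 501, 127, 458 and 359.8 in TRaGS. In Treg the values were 458, 567, 646 and 539.9 in TRaWT and 466, 425, 531 and 399 in TRaGS. The CD4 estimate of -0.51 ± 0.33 (95% interval -1.15 to 0.13) rested largely on the low library of TRaGS replicate 2 and was -0.07 without it, and the Treg estimate was -0.28 ± 0.17 (-0.62 to 0.07, adjusted p = 0.675 by limma). Ldha (ENSMUSG00000063229, chr7:46841475-46855627, plus strand), the lactate-forming subunit, read 279, 368, 329 and 380.5 in TRaWT and 316, 755, 210.2 and 249.8 in TRaGS CD4 cells. In Treg it read 385, 272, 437 and 366 in TRaWT and 394, 379.5, 375 and 345 in TRaGS. Apart from the 755 of TRaGS replicate 2, Ldha lay between 210.2 and 437 in all libraries, with log2 fold changes of -0.01 ± 0.34 (95% interval -0.68 to 0.66) in CD4 and 0.05 ± 0.19 (-0.33 to 0.43) in Treg.

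**Figure D2:**
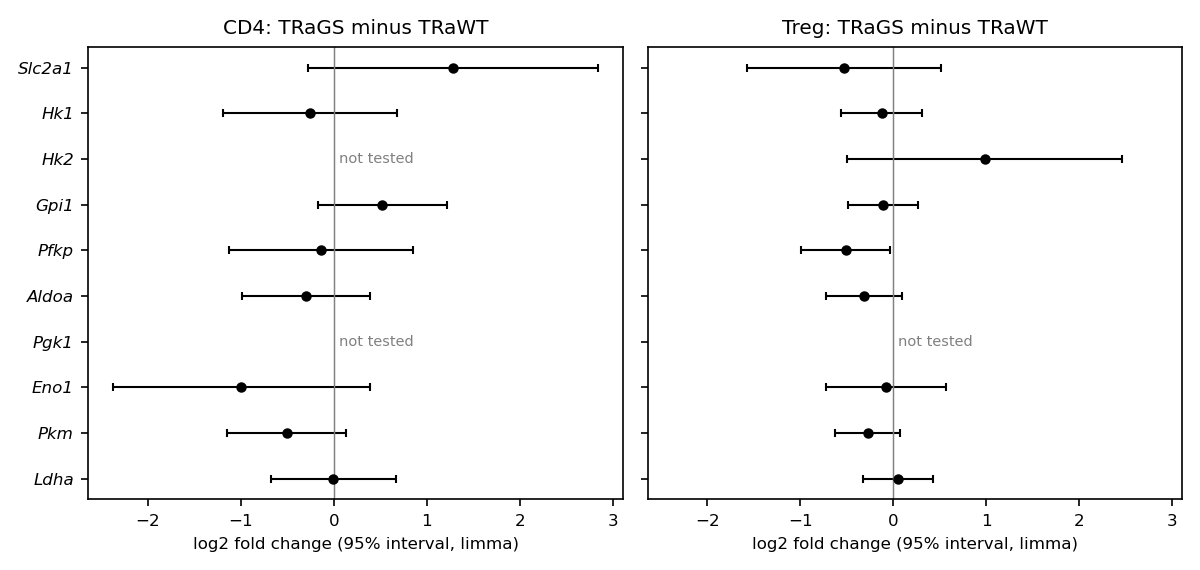
Log2 fold change of TRaGS against TRaWT (x axis, limma estimate with its 95% interval, n = 4 and 4 libraries) for each gene (y axis) in CD4 and Treg. Intervals cross 0 for all 8 genes tested in CD4 and for 8 of 9 in Treg, the exception being Pfkp (-0.99 to -0.03), and Treg intervals are narrower for each of the 8 genes tested in both.

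The width of these intervals set what could be seen. The pooled SD of log2 values within genotypes was larger in CD4 than in Treg for 8 of the 8 members tested in both, with medians of 0.86 and 0.31, beside medians of 1.12 and 0.57 over all tested genes. In Treg, Pkm (SD 0.19), Gpi1 (0.20) and Ldha (0.21) were the steadiest members, and their 3 intervals together span -0.62 to 0.43 log2 units. In CD4, Pfkp (1.57), Eno1 (1.22), Slc2a1 (1.13) and Hk1 (1.05) were the most variable. For CD4, limma set each gene's variance from the trend alone, so the standard errors printed for those genes do not include their own larger spread, and the exact permutation p of Pfkp there was 0.971. Adding up all 10 genes gave 1961 ± 531 normalised counts in TRaWT and 1932 ± 211 in TRaGS CD4 cells (SD, n = 4), and 2393 ± 316 and 2084 ± 49.4 in Treg. The lowest sum in each table was that of TRaWT replicate 1, at 1185 in CD4, and its Treg sum of 1940 lay below the 2023 to 2126 of the TRaGS mice, whereas the other 3 TRaWT mice had 2413 to 2619.

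The members' levels varied together only in part. After centring on the genotype means, Pearson's r of a member with the mean of the other tested members over the 8 libraries was highest for Gpi1 in CD4 (0.80) and Hk1 in Treg (0.77) and lowest for Eno1 in CD4 (-0.12) and Slc2a1 in Treg (-0.46). These are descriptions of libraries that share depth and cell composition. The genes outside the 10 whose centred levels ran closest to the members' mean were Klrd1 (r = 0.98), Sod1 (0.98), Trir (0.96), Atp6v1f (0.95) and Bccip (0.95) in CD4, and Wdr6 (0.98), Phka2 (0.94), Commd9 (0.93) and Parp8 (0.93) in Treg. They were picked for the highest r among genes with a symbol, out of 10426 tested in CD4 and 11051 in Treg. Over 8 libraries such a choice alone gives high values.

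Levels in the subsets of the same mouse were set side by side as RPM, the reads of a gene scaled to the library's total outside Gm42418, without a test, since the deposited tables were normalised separately. Hk2 was higher in Treg than in CD4 in 8 of 8 mice, at 0 to 4.73 (median 1.14) in CD4 and 1.97 to 19.8 (median 7.42) in Treg. In order of group means Hk2 ran from CD4 TRaGS and CD4 TRaWT to Treg TRaWT and Treg TRaGS. Each group overlapped its neighbour, and the lowest and highest groups did not overlap. The CD4 values of Hk2 rest on 27 reads in all. How many of all genes rise in 8 of 8 mice, or separate groups in this way, was not counted. Hk1 was higher in Treg in 7 of 8 mice, with medians of 95.2 in CD4 and 112.8 in Treg, and Eno1 in 6 of 8, with medians of 36.5 and 41.7. Pfkp and Ldha were higher in Treg in 5 mice, Gpi1 and Pkm in 4, Slc2a1 and Aldoa in 3. For those 8 genes every group overlapped its neighbours and the lowest group overlapped the highest.

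**Figure D3:**
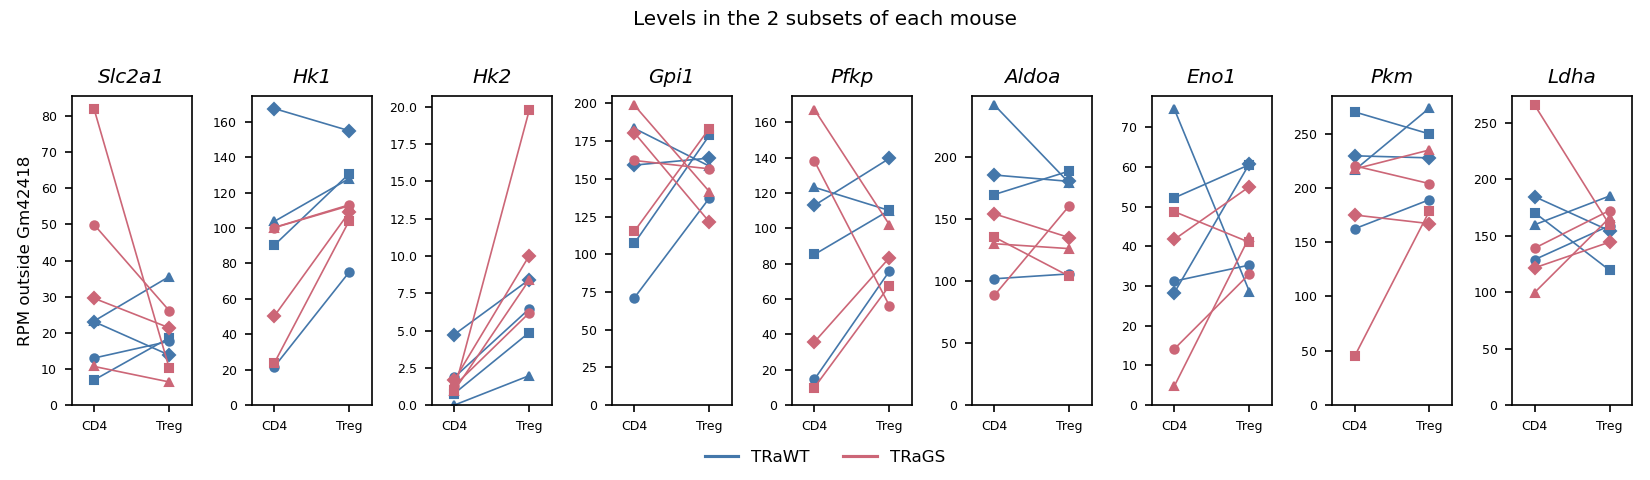
RPM outside Gm42418 (y axis) in the CD4 and Treg library (x axis) of each mouse, 1 line per mouse, for the 9 members other than Pgk1. Hk2, with 27 reads in all in CD4, climbs from CD4 to Treg in all 8 lines, while lines for the other genes cross.

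Not every glycolytic mRNA was read at a level that can be interpreted. Gapdh and Pgam1, which like Pgk1 serve steps that all glycolytic cells use, were listed at 0 to 2.18 and at 0 in CD4 and at 1.17 to 36.1 and 0 to 1.09 in Treg. These 3 enzymes share much of their mRNA with transcripts of other genes. Of the 50-base words of the annotated mRNA, 68.0% for Pgk1, 58.4% for Gapdh and 41.5% for Pgam1 also occurred in another gene's transcript, and Gapdh had 136 pseudogene copies. Among the members with readable levels the share was highest for Eno1, at 49.5% (86.9% of its last 300 bases), followed by Gpi1 (24.5%), Pkm (23.7%), Pfkp (15.4%) and Ldha (10.4%, with 9 pseudogenes). Aldoa had 8.5%, Slc2a1 and Hk1 had 1.6% and Hk2 had 0%. Because the tags come from the 3′ end, the share in the last 300 bases matters more. It was 78.3% for Gapdh, 17.9% for Aldoa, 20.5% for Ldha, 20.7% for Pkm and 24.04% for Gpi1. Pfkp was above these 4 members, and Slc2a1, Hk1 and Hk2 had 0%. For Pfkp, Ldha and Aldoa the end share exceeded the whole-mRNA share. Its effect on the levels of these genes was not tested. The pseudogene copies of Pgk1 and Pgam1 were listed at 0 as well, and those of Gapdh summed to at most 39.7. In Pgk1 and Pgam1 the last 300 bases held no shared word, and whether shared sequence accounts for the zeros was not tested. Eno1 is therefore uncertain in level, and nothing can be said of Pgk1.

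**Figure D4:**
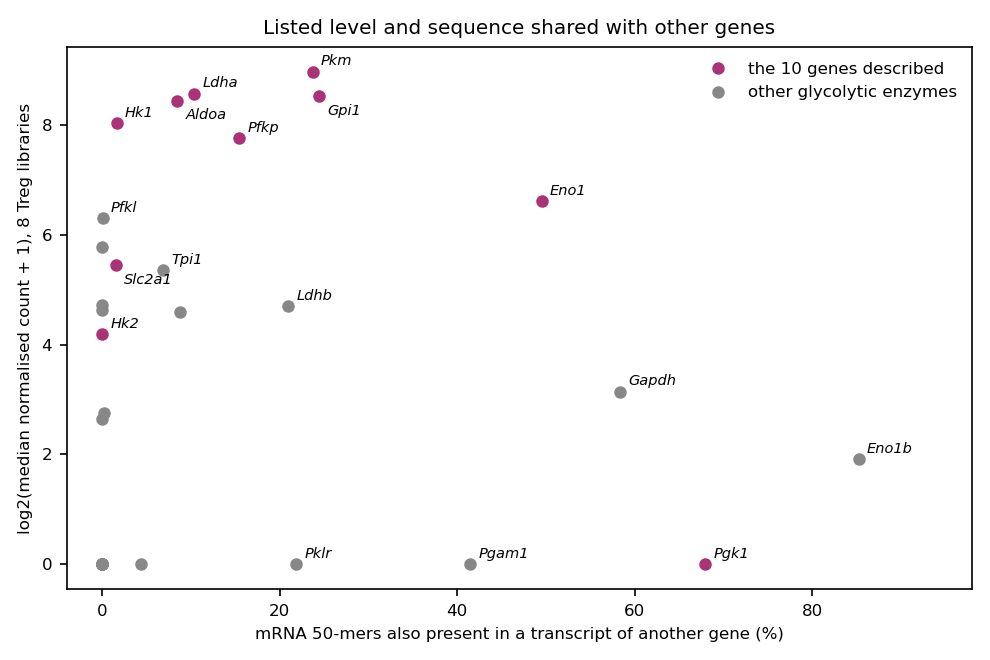
Listed level (y axis, log2 of the median normalised count over the 8 Treg libraries + 1) against the percentage of mRNA 50-mers also found in transcripts of another gene (x axis), for the 10 genes and 20 other glycolytic enzyme genes. Pgk1 and Pgam1 lie at 0 with 68.0% and 41.5% shared, Gapdh at a low level with 58.4%, and the well-read members at 24.5% or less apart from Eno1, while Tpi1, another enzyme that all glycolytic cells use, is low (median 40.0 normalised counts) with 6.8% shared.

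The surrounding pathway was described through 94 further genes in 6 lists, which cover other glucose and lactate carriers, the remaining glycolytic enzymes, control of the fructose bisphosphate step with gluconeogenesis, pyruvate entry with the cytosolic NADH shuttles, the pentose phosphate pathway, and transcriptional and signalling regulators. Of these, 64 were tested in CD4 and 68 in Treg, and limma passed 0 at the adjusted threshold in either. edgeR also passed 0 in both, and DESeq2 passed 0 in CD4 and 1 in Treg (Hif1a). At an unadjusted limma p under 0.05 there were 4 in CD4 and 6 in Treg, beside 5.17% and 9.12% of all genes. Of the tested genes, 2 in CD4 and 5 in Treg separated the genotypes without overlap, beside 3.16% and 5.07% of all genes. Estimates were positive for 29 of 64 in CD4 and 38 of 68 in Treg. The pentose phosphate list had the most even direction, with 7 of 8 positive estimates and a median of 0.25 in Treg, where its summed level was 1115 ± 67.3 in TRaWT and 1283 ± 112 in TRaGS. In CD4 the same list had 4 of 8 positive. Transketolase (Tkt) and transaldolase (Taldo1), the enzymes that link that pathway back to glycolysis, had Treg estimates of 0.32 ± 0.19 and 0.25 ± 0.25, with adjusted p of 0.639 and 0.852.

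Hif1a, the oxygen-regulated transcription factor that drives many glycolytic genes, had the lowest adjusted p of the 94 genes in Treg. In Treg it read 374, 422, 511 and 418 normalised counts in TRaWT and 623, 542, 746 and 769.9 in TRaGS, so that all 4 TRaGS libraries lay above all TRaWT libraries. The log2 fold change was 0.63 ± 0.17 (95% interval 0.29 to 0.97), with limma's adjusted p = 0.059, edgeR's 0.068 and DESeq2's 0.017. It passed under 6 of 19 alternatives, which included leaving out TRaGS replicate 2 or TRaWT replicate 3, and its adjusted p ranged from 0.0077 to 0.691. In CD4 it read 203, 223, 223 and 176 in TRaWT and 224, 180.3, 354 and 231 in TRaGS, with an estimate of 0.22 ± 0.40. The difference between subsets was 0.41 ± 0.36 (95% interval -0.42 to 1.24, adjusted p = 0.913), so the effect in Treg was not shown to differ from that in CD4. Of the 9 genes with an ACGTG or GCGTG match in a promoter window, Slc2a1, Hk1, Pfkp, Aldoa, Eno1 and Pkm had negative Treg estimates. Hk2 and Ldha had positive ones, none of these estimates passed the threshold, and Pgk1 was not tested. Whether Hif1a acts on any of these genes was not tested.

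Other regulators in Treg included Foxo1, a transcription factor of T cell quiescence that opposes glycolytic programmes. It read 844, 1026, 921 and 1052 in TRaWT and 802, 742, 802 and 641 in TRaGS, all TRaGS libraries below all TRaWT libraries, at -0.36 ± 0.15 (adjusted p = 0.410). Pdha1, the catalytic subunit of pyruvate dehydrogenase that feeds pyruvate to the mitochondria, read 357, 399, 496 and 329.8 in TRaWT and 277, 299, 279 and 313 in TRaGS, likewise without overlap, at -0.42 ± 0.19 (adjusted p = 0.481). Pdk2, a kinase that inhibits that enzyme complex, had an estimate of -1.88 ± 0.96 (adjusted p = 0.562). The remaining 2 Treg genes without overlap were low, both higher in TRaGS. Aldoc, the brain-type aldolase, read 0 to 4.70 in TRaWT and 5.81 to 18.8 in TRaGS. Mpc1, a mitochondrial pyruvate carrier subunit that was named after its values were seen, read 2.33 to 10.7 and 11.2 to 19.6. Of the carriers, Slc2a8 had an estimate of 1.98 ± 1.10 and the urate and hexose transporter Slc2a9 0.89 ± 0.74, and Pfkl, the liver-type phosphofructokinase, had -0.91 ± 0.40 (adjusted p = 0.456). Pck2 and Pfkfb3 had 0.34 ± 0.43 and -0.16 ± 0.38.

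Markers of cell identity and proliferation were compared first in Treg, where 0.959% of all tested genes passed limma's threshold. The 7 Treg markers summed to 8021 to 9288 in TRaWT and 9814 to 11891 in TRaGS, with 2 of 7 past the threshold, both higher, and 0 at 0 in all libraries. Among 14 cell cycle genes 1 of 9 tested passed, the proliferation marker Mki67, at 102 ± 66.2 in TRaWT and 218 ± 77.3 in TRaGS (SD, n = 4), while the summed list was 1543 ± 327 and 1567 ± 122. In CD4, where 0.0575% of all tested genes passed, the same 7 Treg markers summed to 1011 to 1268 in TRaWT and 1312 to 1802 in TRaGS. There 0 of the 7 passed, and 0 of the 9 cell cycle genes tested, whose summed list was 1625 ± 235 and 1473 ± 172. The part of Treg identity or proliferation in the values of Hif1a, Foxo1 or the glycolytic genes was not tested.

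In CD4 the gene with the lowest p in the 6 lists was Gpd2, the mitochondrial glycerol phosphate dehydrogenase that passes electrons from cytosolic NADH to the respiratory chain and is a known thyroid hormone target in rodent liver. It read 299, 372, 158 and 162 in TRaWT and 134, 11.3, 119 and 119 in TRaGS, all TRaGS libraries below all TRaWT libraries. The estimate was -1.73 ± 0.51 (95% interval -2.73 to -0.73), with limma's adjusted p = 0.510, and it passed under 1 of 19 alternatives, with TRaGS replicates 1 and 2 alone (adjusted p = 0.040). The lowest value was that of TRaGS replicate 2, which that alternative includes, and without this library the estimate was -0.89. In Treg its values of 71.5 to 116.6 in TRaWT and 65.8 to 94.0 in TRaGS overlapped, at -0.33 ± 0.33, and the difference between subsets was 1.40 ± 0.93 (adjusted p = 0.878). Rheb, the small GTPase that activates mTORC1, had -2.002 ± 0.91, Ldhb, the other main lactate dehydrogenase subunit, 2.72 ± 1.21, and Pfkl -1.46 ± 0.80, all with adjusted p = 0.947. The other named CD4 genes (Slc2a9, Slc16a1, Tigar, G6pc3, Gpd1l, Rpe and H6pd) had estimates between -1.81 and 1.01 with the same adjusted p.

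**Figure D5:**
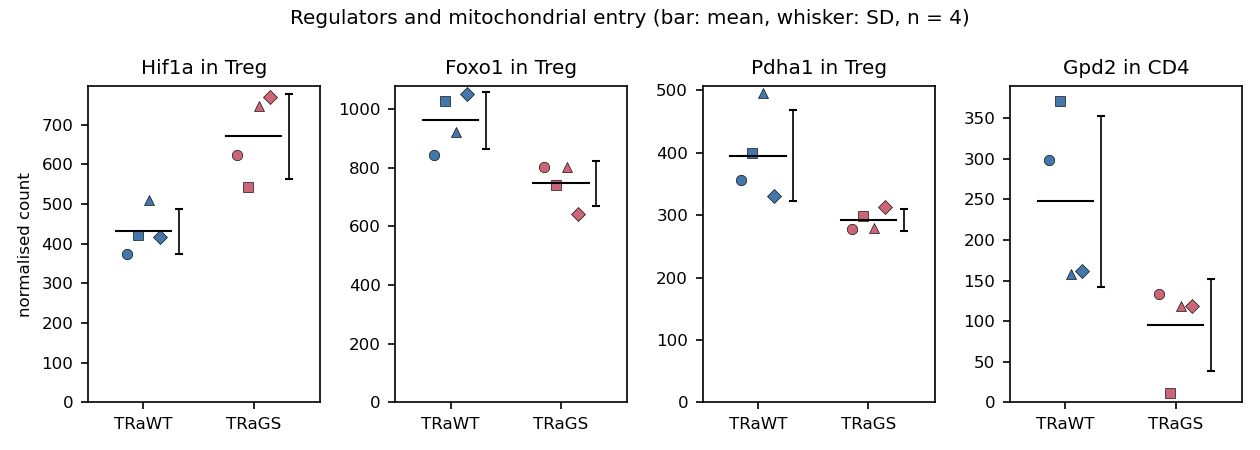
Normalised counts (y axis) of 4 genes around the pathway whose TRaWT and TRaGS libraries (x axis) did not overlap, with symbols for the replicates, bars for the mean and whiskers for the SD (n = 4). Hif1a is higher and Foxo1 and Pdha1 lower in TRaGS Treg cells, and Gpd2 is lower in TRaGS CD4 cells; none passed limma's adjusted threshold, and Hif1a passed DESeq2's (adjusted p = 0.017).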

How the data were processed

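RNA was measured by 3′ mRNA sequencing (QuantSeq 3′ FWD) in 8 CD4 and 8 Treg libraries, per the labels' protocols. The genome build is GRCm38, per the submitters' processing notes, and the aligner and counter were not given in the sources used here. As deposited by the authors, the tables hold normalised counts, a signal in which reads per gene are divided by a library size factor, in 1 table per subset. The steps of these values gave whole reads for 100% of values (tolerance 0.001), used for depth and for edgeR 4.0.16 and DESeq2 1.42.0 as alternatives. The main test was limma 3.58.1 in R 4.3.3 on log2(value + 1), a scale that understates the change of low genes, with a variance trend, for genes with a mean of at least 5 in a subset, genotype as the only term, and Benjamini-Hochberg adjustment over all genes tested. The difference between subsets was fitted on each mouse's Treg minus CD4 value, paired by the mouse number in the labels, without a variance trend. Of the 47643 identifiers, 47224 had a symbol. Scripts were tested on simulated data.

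All 10 genes are named. From each of the 6 other lists, genes past the threshold are named or, where none passed, the 2 with the smallest p, and with these the 5 genes most like the members' mean. A few genes that these rules select are not reported here. Members, lists and rules were chosen with earlier results of these data known. Shared sequence was counted as 50-base words of the GENCODE transcripts. Alternatives covered pseudocount, filter, scaling, tool, weights, a replicate block and leaving out each replicate. The replicates are separate mice. In the labels, TRaGS replicates 3 and 4 have mouse and library numbers above those of every TRaWT mouse. TRaGS replicate 2 also has a mouse number above those of every TRaWT mouse, but its library numbers lie among those of the TRaWT mice. Anything that goes with these numbers cannot be told apart from genotype in those mice. Intervals in Treg and in the difference between subsets rest in part on each gene's own spread between mice. CD4 intervals rest on the variance trend over all genes alone. The depth of 2679119 to 5095278 reads per library limits low genes such as Hk2.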

Additional observations from a re-analysis of the deposited data

Results flagged for a closer look

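Aldoa in Treg of TRaWT replicate 1, at 256 normalised counts, lay far from the other 3 TRaWT libraries, which read 423 to 429.6. Of 34 groups of 4 libraries checked, it was the 1 with such a gap. The cutoff flags about 1 group in 20 by chance, so 1 of 34 is not more than chance gives. The same library had the lowest sum of the 10 genes in its table.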

How the results depend on the processing

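0 of the 10 genes passed the threshold in CD4 (19 alternatives), Treg (19) and the difference between subsets (17), with lowest adjusted p of 0.306, 0.337 and 0.450. Of the members' values under these alternatives, 417 kept their sign and 41 changed it. edgeR and DESeq2 turned the CD4 estimates of Pfkp (0.12 and 0.13) and Ldha (0.17 in both). With TRaGS replicates 1 and 2 alone, Ldha in CD4 was 0.54, Gpi1 in Treg 0.077, and the differences between subsets of Aldoa and Ldha 0.023 and -0.43. Upper-quartile scaling moved the median of all genes to -0.14 in CD4, 0.09 in Treg and 0.22 in the difference, and on it Eno1 in Treg was 0.012 and the difference of Aldoa 0.21. The cause was not tested. Leaving out 1 replicate changed signs in CD4 for Hk1 (-0.84 to 0.11), Pfkp (-0.83 to 0.56) and Ldha (-0.40 to 0.21), in Treg for Hk1 (-0.33 to 0.0079), Eno1 (-0.28 to 0.082) and Ldha (-0.083 to 0.15), and in the difference for Hk1 (-0.19 to 0.51), Pfkp (-1.03 to 0.22), Aldoa (-0.28 to 0.22), Pkm (-0.18 to 0.43) and Ldha (-0.17 to 0.44). Slc2a1 kept its sign, at 0.76 to 1.86 in CD4, -0.82 to -0.16 in Treg and -2.17 to -1.16 in the difference, and over all alternatives at 0.41 (array weights) to 2.33 (TRaGS replicates 1 and 2 alone) in CD4 and down to -2.62 in the difference. Same-numbered mice of different genotype did not deviate together (correlations of 0.009 to 0.046 in CD4 and -0.021 to 0.026 in Treg), and with the replicate number as a block 0 members passed. Over all genes, 4 passed in CD4 and 112 in Treg with the block, and 0 and 0 without a variance trend. Other counts over all genes were 1 (no filter) to 27 (TRaGS replicates 1 and 2 alone) in CD4, and 42 (those replicates alone) to 138 (DESeq2) in Treg. Depth limits Hk2 in CD4, with 27 reads in all.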
